A study of Homo sapiens with 6 samples.

Results

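Serum response factor (SRF) and 9 contractile genes that it is known to drive were followed in MDA-MB-231 cells lacking the kinase MRCKα, the kinase MRCKβ or both. The 10 genes, SRF, ACTA2, ACTG2, LMOD1, TAGLN, CNN1, CNN2, TPM1, TPM2 and CALD1, were chosen by name for their known place in this pathway, with earlier results of these data known. All 10 were found among the 17064 genes listed, and 8 of them had enough reads to be tested in the double knockout (DKO). None of the 8 passed edgeR's quasi-likelihood test in DKO after adjustment over all genes. SRF itself came nearest, at 55.28 ± 5.39 (SD, n = 2) against 43.86 ± 5.09 in vector control, in FPKM (read counts scaled to transcript length and library total), a ratio of 1.26. TAGLN and CALD1 differed more between the control libraries than between the mean of the controls and any knockout.

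SRF is a transcription factor that binds a short DNA element called the CArG box and works with one of several partners. The myocardin-related transcription factors (MRTF) are held inactive by monomeric actin and are released when actin is polymerized, so that contractile and cytoskeletal genes rise with actin assembly. The ternary complex factors (TCF) compete for SRF and drive immediate early genes after growth factor signals. MRCKα and MRCKβ are kinases downstream of Cdc42 that promote myosin light chain phosphorylation and actin assembly, which puts actin-regulated SRF activity among the transcriptional outputs that a loss of these kinases could alter.

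MDA-MB-231 is a triple-negative human breast cancer line with mesenchymal features. RNA of subconfluent cultures was sequenced in 6 libraries, of which 2 were vector control, 1 was MRCKα KO, 1 was MRCKβ KO and 2 were DKO. The knockouts were made with the lentiviral Cas9 and guide vector lentiCRISPRv2 and were selected as pools without picking clones, and the controls carried the empty vector from separate transductions. The 2 DKO libraries came from different guide sets, and which set made which library is not stated in the sources used here. All p-values below measure the spread between these libraries, and the single knockouts have no replicate. The comparisons share the vector libraries and are not independent of each other.

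The libraries held between 10349898 and 10657857 expected counts, which are reads assigned to genes by estimation, and 12911 to 13038 genes reached 10 counts. The transcripts of the targeted genes were read in every library, and since frameshifting edits need not remove an mRNA, these levels do not check the knockouts. CDC42BPA, which encodes MRCKα, had FPKM values of 36.43 and 23.32 in the vector libraries and 28.31 and 26.06 in DKO, with 29.43 for MRCKα KO and 34.94 for MRCKβ KO. CDC42BPB, which encodes MRCKβ, was at 30.28 and 29.11 in the vector libraries and 23.42 and 23.47 in DKO, with 27.29 for MRCKα KO and 25.7 for MRCKβ KO. All 5 markers of this line (VIM, CD44, AXL, KRT8 and KRT18) were at 110.97 FPKM or more, and ESR1, PGR and CDH1 were at 0.87 FPKM or less. Of 9 markers of fibroblasts and smooth muscle, which also express contractile genes, 8 were listed and none passed 5.9 FPKM, and their summed FPKM was 10.87 and 4.13 in the vector libraries and 6.47 and 4.26 in DKO, with 4.89 for MRCKα KO and 7.66 for MRCKβ KO.

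The promoters show which of the 10 genes carry an exact CArG box close to the start site. RefSeq promoter windows (build GRCh38.p14, 250 bases before to 50 after a start site) were found for 9 of the 10, and the box was searched as 10 bases that begin with CC, hold 6 bases of A or T and end with GG, a motif whose pattern is the same on both strands. It was found in SRF, ACTG2 and CNN2, which is 33.3% of the 9. The share was 1.6% of all 27305 genes with a window and 1.63% of the 10692 of these tested in DKO. The members were chosen as known SRF targets, so a share above that of all genes was built into the choice and tests nothing. A gene could have more than 1 window, with 15 for the 9 members. By window the share over all genes was 1.29% of 35116. The 5 boxes are printed 5′ to 3′ on the plus strand, which is the coding strand of all 3 genes, with the box in capitals and 10 bases on each side, because they are the element that SRF is known to bind, and ACTG2 is the member that differed most between the single knockouts.
SRF, chr6:43171229-43171258: ctggggctcaCCATATAAGGagcggcctcg
SRF, chr6:43171249-43171278: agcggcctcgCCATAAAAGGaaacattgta
ACTG2, chr2:73892888-73892917: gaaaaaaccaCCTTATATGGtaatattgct
ACTG2, chr2:73892925-73892954: cgtcagctggCCTTTTTAGGgactttgttt
CNN2, chr19:1026509-1026538: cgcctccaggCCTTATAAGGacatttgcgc

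The boxes of SRF began at positions -30 and -10 relative to the RefSeq start site of the window, those of ACTG2 at -110 and -73, and that of CNN2 at -89. These start sites differ from the gene starts printed below, which are the outer coordinates in GENCODE v29. A match of this kind describes the sequence and does not show binding in these cells. Windows of 12 of 21 other MRTF and SRF targets (57.1%), 2 of 7 immediate early genes (28.6%) and 0 of 9 regulators of the pathway held the box. The targets and immediate early genes were likewise listed for known regulation by SRF, so their shares are descriptions only. The 3 genes with the box differed in part in the order of the libraries. SRF and ACTG2 were both highest in DKO 2, followed by MRCKβ KO, while CNN2 was highest in vector 2. The lowest library was vector 2 for SRF, MRCKα KO for ACTG2 and DKO 1 for CNN2.

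The 10 genes covered a wide range of levels. CNN2 (111.4 FPKM on average over the 6 libraries), TPM1 (75.68 FPKM) and SRF (49.64 FPKM) were at percentiles 96.4, 94.0 and 90.2 of the listed genes, and CALD1, TAGLN and TPM2 followed at 22.98, 11.32 and 9.25 FPKM. The smooth muscle genes ACTA2 and ACTG2 were at 1.837 and 1.27 FPKM, and CNN1 and LMOD1 at 0.3233 and 0.07 FPKM. The last 4 rested on 0 to 48 counts per library, so that only large differences could be seen in them.

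**Figure D1:**
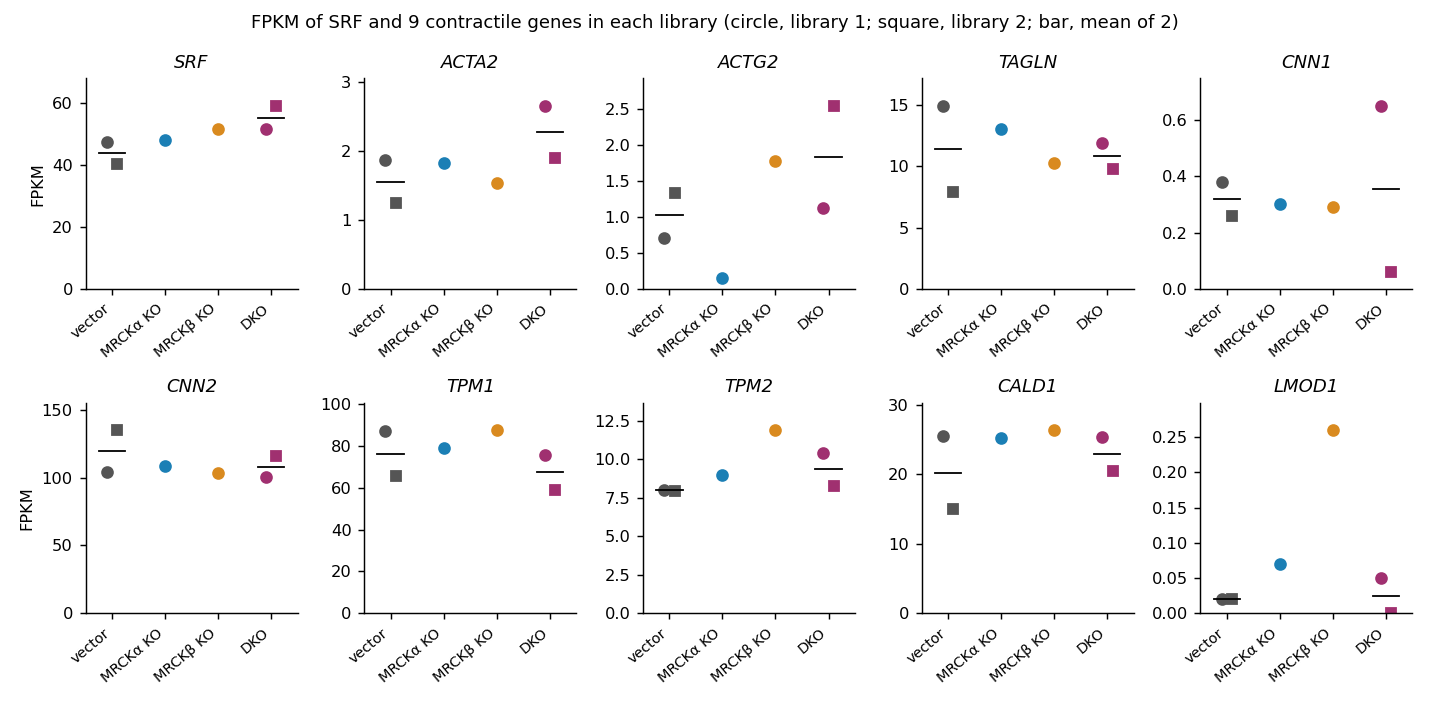
FPKM of each of the 10 genes in the 6 libraries, with a y axis from 0 for each gene, circles for single libraries and the first library of a pair, squares for the second and bars for the mean of 2. SRF is higher in both DKO libraries (51.47 and 59.09) than in both vector libraries (47.46 and 40.26), while vector 1 and vector 2 are well apart in TAGLN (14.92 and 7.92) and CALD1 (25.45 and 14.96).

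SRF (chr6:43171299-43181507, plus strand) was expressed at 47.46 and 40.26 FPKM in the vector libraries and 51.47 and 59.09 in DKO, with 47.93 for MRCKα KO and 51.61 for MRCKβ KO. Both DKO libraries lay above both vector libraries, and the MRCKβ KO library lay above them as well. The MRCKα KO library, with 1898 counts, stood beside vector 1, with 1908. In edgeR the log2 fold change of SRF in DKO was 0.33 ± 0.13 (SE, n = 2 and 2 libraries), with an adjusted p of 1.0, and its 95% interval ran from just under 0 to 0.65. Across the alternative fits and left-out libraries the change stayed between 0.22 and 0.44, and its adjusted p between 0.457 and 1.0. In the fit of all 6 libraries the change was 0.12 ± 0.17 in MRCKα KO and 0.23 ± 0.17 in MRCKβ KO, both with an adjusted p of 1.0.

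Of the 8 genes tested in DKO, 0 passed an adjusted p of 0.05, as did 0.0% of the 13123 genes tested. Before adjustment 0 of the 8 passed 0.05, against 2.39% of all genes. That count depended on the setting for SRF, which lay close to the threshold and passed it before adjustment in 4 of 13 alternatives (library size alone, at least 10 counts in every library, the replicate block, and without vector 1). Without vector 1, CNN2 and CALD1 passed it too, making 3 of 8 against 8.6% of all genes in that fit. After adjustment none of the 8 passed in any of the 13, DESeq2 among them. Their median log2 fold change was 0.20, and 5 of the 8 were positive, beside a median of -0.002 over all genes tested. On the scale of counts normalised to library size with TMM factors, 2 of the 8, SRF and TPM2, were higher in both DKO than in both vector libraries, against 14.4% of all genes, and 0 of the 8 were lower in both, against 14.6%. On the FPKM scale ACTA2 also had no overlap, and 1.90 in DKO 2 stood beside 1.86 in vector 1 there. A p that misses the threshold does not show equal levels, and the 95% intervals give what the libraries allow. They ran from -0.87 to 0.73 for TAGLN, -0.56 to 0.22 for CNN2, -0.64 to 0.28 for TPM1, -0.36 to 0.77 for TPM2 and -0.47 to 0.84 for CALD1, so that a 2-fold change in either direction lay outside these and that of SRF, and inside those of ACTA2 and ACTG2 for an increase.

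**Figure D2:**
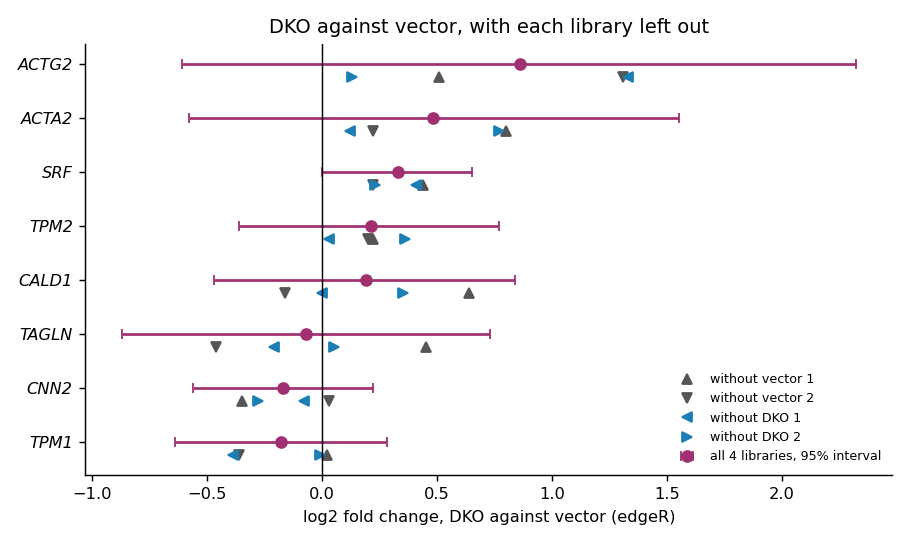
Log2 fold change of the 8 tested genes in DKO against vector (edgeR), with points and bars for the fit of 4 libraries and its 95% interval and triangles for fits without 1 library. The intervals of 7 genes span 0, that of SRF begins at about 0, and the triangles of TAGLN run from -0.46 without vector 2 to 0.45 without vector 1.

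The smooth muscle actins were low in these cells. ACTA2 (chr10:88935074-88991339, minus strand), which encodes α-smooth muscle actin, was at 1.86 and 1.24 FPKM in the vector libraries and 2.65 and 1.90 in DKO, with 1.83 for MRCKα KO and 1.54 for MRCKβ KO, from 22 to 48 counts. On FPKM the DKO libraries were the highest ones, but vector 1 and DKO 2 were nearly equal. By counts DKO 2, with 31, was below vector 1 and MRCKα KO, with 34 each. The estimated transcript length, by which FPKM is scaled, was 1562.7 bases in DKO 2 and 1722.0 in vector 1. The fitted log2 change in DKO was 0.48 ± 0.44 (adjusted p = 1.0), with an interval from -0.58 to 1.55. Other genes on the opposite strand overlap 30.1% of the exonic bases of ACTA2, 21.4% of those of TPM1, 13.5% of LMOD1, 11.4% of TAGLN and 9.27% of CNN2, and the sources used here do not say whether the counting used strand.

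ACTG2 (chr2:73892314-73919865, plus strand), which encodes the γ actin of visceral smooth muscle, had the widest relative spread of the members with a count in every library. Its FPKM was 0.71 and 1.33 in the vector libraries and 1.12 and 2.54 in DKO, with 0.15 for MRCKα KO and 1.77 for MRCKβ KO. These values rested on 10 and 17 counts in the vector libraries, 15 and 35 in DKO, 2 in MRCKα KO and 24.94 in MRCKβ KO. The MRCKα KO library was below all the others, and DKO, which lacks MRCKα too, was not low. The count ratio of MRCKα KO to vector was 0.15 with a 95% interval from 0.0173 to 0.597 for counting error, and the fit of 6 libraries gave a log2 change of -2.68 ± 1.11 (adjusted p = 1.0).

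For the contrast of MRCKα KO with MRCKβ KO, which was added after these values had been seen, ACTG2 had a log2 difference of -3.54 ± 1.16 (edgeR, adjusted p = 1.0). Before adjustment 2.03% of the 13764 genes passed 0.05 in that contrast, and 0.0% passed after it. In DKO the change of ACTG2 was 0.86 ± 0.61 (adjusted p = 1.0), and leaving out 1 library moved it between 0.13 and 1.33. The DKO libraries were themselves apart, with a count ratio of DKO 1 to DKO 2 of 0.431 (0.218 to 0.809).

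LMOD1 (chr1:201896452-201946588, minus strand) encodes leiomodin 1, which nucleates actin filaments in smooth muscle. It had 1 count in each vector library, 2 in DKO 1 and 0 in DKO 2, while MRCKα KO had 3 and MRCKβ KO had 11. A count of 0 of 10510366 allows a share of up to 2.9e-05%, so that all libraries other than MRCKβ KO were at or under the limit of detection of 3 counts. The count ratio of MRCKβ KO to vector was 10.9, with a counting interval from 2.37 to 101. LMOD1 passed the filter of the 6-library fit only because of the MRCKβ KO library, so no fitted change is given. No difference of LMOD1 between DKO and vector was detectable at this depth.

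The calponin family followed no common pattern. TAGLN (chr11:117199321-117204782, plus strand), which encodes transgelin, an actin-binding protein often used as a readout of MRTF, was at 14.92 and 7.92 FPKM in the vector libraries and 11.89 and 9.81 in DKO, with 13.07 for MRCKα KO and 10.29 for MRCKβ KO. Vector 1 was the highest and vector 2 the lowest library, and all 4 knockout libraries fell between them. Its log2 change was -0.07 ± 0.33 in DKO, 0.17 ± 0.39 in MRCKα KO and -0.12 ± 0.40 in MRCKβ KO (all with an adjusted p of 1.0 in edgeR). Its sign depended on the control used, at -0.46 in DKO without vector 2 and 0.45 without vector 1.

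CNN2 (chr19:1026581-1039068, plus strand) encodes calponin 2, a calponin of non-muscle cells, and was the most abundant of the 10. Its FPKM was 104.46 and 134.99 in the vector libraries and 100.23 and 115.97 in DKO, with 108.85 for MRCKα KO and 103.75 for MRCKβ KO. Vector 2 was above all other libraries, the reverse of TAGLN. The change in DKO was -0.17 ± 0.16 (edgeR, adjusted p = 1.0), and it was 0.03 without vector 2. CNN1 (chr19:11538717-11550323, plus strand), the smooth muscle calponin, had 6 and 4 counts in the vector libraries, 11 in DKO 1, 1 in DKO 2 and 5 in each single knockout, and it was too low to be tested in DKO. In the fit of 6 libraries it was kept only through DKO 1, and its log2 change was 0.00 ± 1.41 in MRCKα KO and -0.02 ± 1.40 in MRCKβ KO.

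Tropomyosins stabilize actin filaments, and caldesmon limits the access of myosin to them. TPM1 (chr15:63042632-63071915, plus strand) was at 87.13 and 65.41 FPKM in the vector libraries and 75.89 and 58.96 in DKO, with 79.18 for MRCKα KO and 87.49 for MRCKβ KO. Vector and DKO overlapped, and its change in DKO was -0.18 ± 0.19 (edgeR, adjusted p = 1.0). TPM1 shared 1.2% of its 50-base stretches exactly with annotated transcripts of other genes, and no other member more than 0.64%. Matches with mismatches were not searched, so reads from similar but not identical sequences were not assessed.

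TPM2 (chr9:35681992-35690121, minus strand) was at 8.02 and 7.94 FPKM in the vector libraries and 10.42 and 8.26 in DKO, with 8.97 for MRCKα KO and 11.89 for MRCKβ KO. The vector libraries were almost equal and all 4 knockout libraries lay above them, although DKO 2, with 109 counts against 107 and 102, did so by little. The change was 0.21 ± 0.23 in DKO, 0.20 ± 0.27 in MRCKα KO and 0.52 ± 0.27 in MRCKβ KO, all with an adjusted p of 1.0 in edgeR. The count ratio of MRCKβ KO to vector was 1.44 with an interval of 1.16 to 1.78 for counting error alone.

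CALD1 (chr7:134744252-134970728, plus strand) was at 25.45 and 14.96 FPKM in the vector libraries and 25.39 and 20.49 in DKO, with 25.26 for MRCKα KO and 26.34 for MRCKβ KO. Vector 2 was the lowest library, and vector 1 was within the range of the knockouts. The change was 0.19 ± 0.27 in DKO, 0.30 ± 0.32 in MRCKα KO and 0.38 ± 0.32 in MRCKβ KO, with an adjusted p of 1.0 each in edgeR. Without vector 1 the 3 changes were 0.64, 0.75 and 0.84, and without vector 2 they were -0.16, -0.04 and 0.04.

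The difference between the controls was larger than counting error for several members. Vector 1 exceeded vector 2 by a count ratio of 1.89 for TAGLN (95% counting interval 1.47 to 2.45), 1.74 for CALD1 (1.59 to 1.92), 1.31 for TPM1 (1.21 to 1.42) and 1.17 for SRF (1.09 to 1.25), and the ratio was 0.774 for CNN2 (0.736 to 0.814). At least 1.5-fold differences between the vector libraries were seen in 3 of the 8 genes, ACTG2, TAGLN and CALD1, against 18.0% of all genes tested, and between the DKO libraries in 2 of the 8, ACTA2 and ACTG2, against 11.8%. Of the 8 listed markers of fibroblasts and smooth muscle, 6 were higher in vector 1 and 2, MYH11 and FAP, in vector 2. Several of these directions rested on few reads. DES, LUM, DCN and FAP had means of 2.2, 1.0, 2.2 and 0.5 counts. MYH11 was nearly equal, at 0.35 FPKM in vector 1 and 0.36 in vector 2. PDGFRB, at 5.9 FPKM in vector 1 and 1.35 in vector 2, made up 4.55 of the difference of 6.74 FPKM between the sums of the list. The smooth muscle markers MYH11 and DES were at 0.36 FPKM or less in all libraries, and the collagen COL1A1 was at 3.26 and 2.27 in vector. The RNA came from cultures of MDA-MB-231 cells, and the part of these markers in the values of TAGLN and CALD1 was not tested. In bulk RNA a difference in some cells of a pool and a difference in all of them cannot be told apart.

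**Figure D3:**
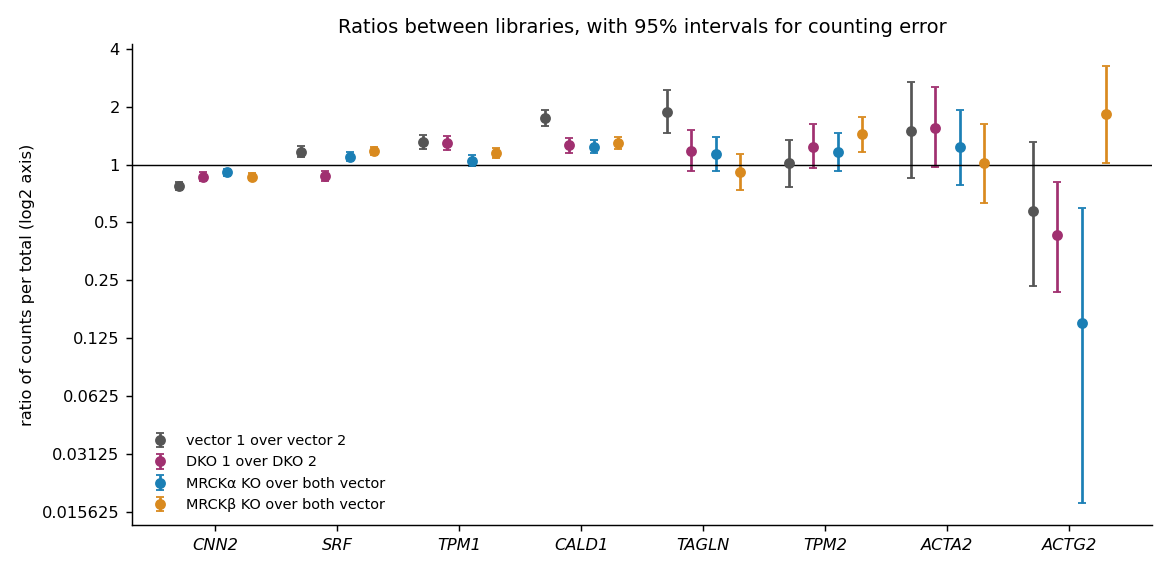
Ratios of counts, scaled to library totals, on a log2 axis with 95% intervals for counting error, for 8 genes; grey is vector 1 over vector 2, purple DKO 1 over DKO 2, blue MRCKα KO and orange MRCKβ KO over both vector libraries together. For CALD1 and TAGLN the controls are further apart (1.74 and 1.89) than either single knockout is from them, and for ACTG2 the MRCKα KO ratio is 0.15.

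In the single knockouts members were set against the range of the controls, by counts normalised with TMM factors. In MRCKα KO 4 of the 10 were above both vector libraries and 1, ACTG2, was below both, against 30.2% and 29.1% of the 13764 genes in the 6-library fit. On the FPKM scale 3 were above, since ACTA2 was not, and 1 of these, LMOD1, rested on 3 counts. In MRCKβ KO 6 of the 10 were above both, against 30.1%, and 1, CNN2, was below both, against 29.1%. One of the 6 was LMOD1, which passed the filter only through this library, and without it 5 of 9 were above. All 4 knockout libraries were above both vector libraries in 2 of the 10, SRF and TPM2, against 5.88%. No gene passed an adjusted p of 0.05 in MRCKα KO (0.0%) or MRCKβ KO (0.0%), and before adjustment 1 of the 10, ACTG2, passed 0.05 in MRCKα KO, against 3.02%, and 0 in MRCKβ KO, against 1.21%.

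A fold-change rule was also applied, in which FPKM values of vector were averaged, genes over 2-fold apart between the replicates were left out and a log2 ratio of 1 in either direction counted as changed. By it 2 of the 10 genes changed in MRCKα KO, against 4.42% of all genes with a ratio. They were ACTG2, at -2.77, and LMOD1, where 3 counts stood against 1 and 1 and no fold can be given. In MRCKβ KO 1 of the 10, LMOD1, passed the rule, against 3.53%. From the same libraries, the study lists ACTG2 among its top genes lowered in MRCKα KO and LMOD1 among those raised in MRCKβ KO. The members were chosen with earlier results of these data known, so these counts are not independent of them. Among genes with a mean of at least 1 FPKM in either group, 1 member passed in MRCKα KO, ACTG2, and 0 in MRCKβ KO. With 1 FPKM added to every level the log2 ratio of ACTG2 in MRCKα KO was -0.81 and that of LMOD1 in MRCKβ KO 0.30, and neither passed. In DKO 0 of 7 passed it, against 1.78%, since ACTG2, CNN1 and LMOD1 were over 2-fold apart between the DKO libraries or at 0 in one of them.

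The members did not vary as one group. Over the 6 libraries, Pearson's r of log2(FPKM + 0.1) for the 21 pairs among the 7 genes with at least 20 counts in every library had a median of 0.25. It was over 0.5 in 7 pairs and below 0 in 7, and ran from -0.97 between CNN2 and CALD1 to 0.81 between TAGLN and CALD1. TAGLN, CALD1 and TPM1 varied together, with r between 0.66 and 0.81, all high in vector 1 and lower in vector 2. CNN2 went against every other gene, and the only negative pair without it was SRF with TPM1. SRF had r of 0.58 with ACTA2, 0.50 with CALD1, 0.32 with TPM2, 0.21 with TAGLN, -0.15 with TPM1 and -0.53 with CNN2. These correlations describe 6 libraries that share 2 controls, and no test was made on them.

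**Figure D4:**
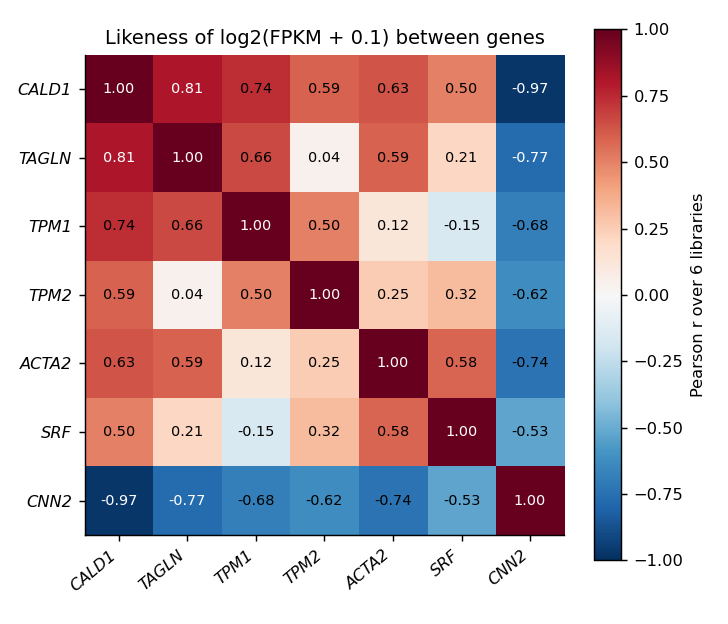
Pearson's r between 7 of the 10 genes over the 6 libraries, from log2(FPKM + 0.1), as a colour scale from -1 to 1. The CNN2 row is negative throughout, down to -0.97 with CALD1, and the upper left block of CALD1, TAGLN and TPM1 lies between 0.66 and 0.81.

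Among 8934 genes with a mean of at least 5 FPKM, those most like TAGLN were ASH1L (r = 0.985), ANP32E (r = 0.984) and MED13 (r = 0.978). The level of ASH1L ran from 9.45 FPKM in vector 2 to 12.99 in vector 1. In all, 95 genes had r of 0.9 or more with TAGLN. Those most like SRF were BCOR (r = 0.985), EIF3G (r = 0.984) and COLGALT1 (r = 0.982), among 133 genes with r of 0.9 or more. EIF3G was at 167.89 and 142.34 FPKM in vector and at 197.01 and 226.82 in DKO, in the same order as SRF at both ends. With 6 points such values arise for many genes.

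A wider set of MRTF and SRF targets had no gene that passed the test in DKO. Of 25 such genes of the cytoskeleton, adhesions and matrix, 23 were tested and 0 passed 0.05 in either direction, before or after adjustment. Their median log2 change was -0.00, with 11 of the 23 above 0. The 3 with the largest changes among those with a mean of at least 50 counts were ACTN1, FHL1 and TPM4. ACTN1, the actin cross-linker α-actinin 1, had a change of 0.30 ± 0.27, from 258.66 and 277.16 FPKM in vector to 236.45 and 432.84 in DKO, so that DKO 2 alone was high. FHL1, a LIM domain protein, had -0.28 ± 0.43 and was at 57.36 and 21.34 FPKM in vector and 40.02 and 25.66 in DKO, again with the controls further apart than the groups. TPM4, a non-muscle tropomyosin, had 0.22 ± 0.15 and was at 612.92 and 485.37 FPKM in vector and 630.97 and 668.01 in DKO, higher in both DKO libraries (adjusted p = 1.0 for all 3 in edgeR). By counts normalised with TMM factors, TPM4 was the only 1 of the 23 higher in both DKO libraries, against 14.4% of all genes. Lower in both were 2 of the 23, FLNA and MYH11, against 14.6%.

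In MRCKα KO 1 of the 23 passed 0.05 before adjustment, against 3.02% of all genes, and 0 after it, with a median change of -0.07, and in MRCKβ KO 0 did, against 1.21%, with a median of 0.02. A count of 1 in 23 is near the share over all genes. The gene was FLNA, the actin cross-linker filamin A, which is named here because its value was seen. It was at 341.31 and 375.29 FPKM in vector and 269.66 in MRCKα KO, a log2 change of -0.43 with an adjusted p of 1.0 in edgeR.

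Genes that SRF drives with TCF had larger fitted changes in DKO than the contractile genes, though the difference between the lists was not tested. Of 8 immediate early genes, 7 were tested and 0 passed after adjustment. One of the 7, EGR2, passed the filter on low counts only through DKO and is left out of the counts that follow. Of the other 6, 3 (EGR1, JUNB and IER2) had an unadjusted p under 0.05, all upward, against 2.39% of all genes. All 6 were higher in both DKO than in both vector libraries, against 14.4%, and their median log2 change was 0.72, beside 0.20 for the members. EGR3, too low to be tested, overlapped, at 0.15 and 0.22 FPKM in vector and 0.19 and 0.31 in DKO. The list was chosen with earlier results of these data known, and the study lists EGR1 among its top genes raised in DKO. These counts are therefore not independent support.

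EGR1, a zinc finger transcription factor, was at 12.49 and 6.81 FPKM in the vector libraries and 37.51 and 70.82 in DKO, with 23.23 for MRCKα KO and 18.11 for MRCKβ KO, a log2 change in DKO of 2.46 ± 0.39 (edgeR, adjusted p = 1.0). JUNB, a subunit of AP-1, was at 28.0 and 22.09 in the vector libraries and 37.28 and 44.41 in DKO, with 30.73 for MRCKα KO and 40.28 for MRCKβ KO, with 0.68 ± 0.17. NR4A1, a nuclear receptor, had 0.75 ± 0.41, and IER2, outside the rule for named genes and chosen after its value was seen, 0.56 ± 0.16. Of the 7 immediate early genes with a promoter window, only EGR1 and EGR2 held an exact CArG box. SRF, which holds it too, is itself known as an immediate early gene. Whether the box goes with a change in DKO was not tested.

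No regulator of the pathway passed the test. Of 11 genes, 10 were listed and 9 tested, and 0 passed the test in DKO, MRCKα KO or MRCKβ KO before or after adjustment, with a median of -0.02 in DKO. MKL1, which encodes the SRF cofactor MRTF-A, was at 6.07 and 5.93 FPKM in the vector libraries and 6.79 and 7.53 in DKO, with 5.34 for MRCKα KO and 6.69 for MRCKβ KO, a log2 change of 0.21 ± 0.14 in DKO. ELK4, a TCF, had 0.18 ± 0.16, and MICAL2, which oxidizes nuclear actin and so releases MRTF, had -0.12 ± 0.12 (adjusted p = 1.0 for all 3 in edgeR).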

How the data were processed

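RNA from the 6 cultures was sequenced by BGI as single-end reads of 50 bases. Per the submitters' processing notes, HISAT, Bowtie2 and RSEM were used with build GRCh38.p11, and their versions are not given in the sources used here. The authors deposited expected counts, which are estimated reads per gene that were not normalized, together with FPKM values scaled to transcript length and library total and rounded to 2 decimals. A table of all libraries held the same FPKM values as the files of single libraries. Strand use in counting is not given in the sources used here.

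Expected counts were rounded, filtered by filterByExpr (minimum count 10), normalized by TMM and tested by edgeR 4.0.16 (glmQLFit, glmQLFTest) in R 4.3.3, with Benjamini-Hochberg adjustment over all genes tested and a threshold of 0.05. DKO was tested against vector in 4 libraries. The single knockouts were tested in a fit of all 6, in which a lone library is assumed to vary like the vector and DKO groups. The fold-change rule takes its replicate filter and threshold from the study's methods. The study also left out poorly expressed genes, for which no limit is stated, so no floor on expression was set and a mean of at least 1 FPKM was an alternative. Ratios of counts have exact conditional binomial intervals, which leave out all error but that of counting, and no molecular identifiers were used. The edgeR step was tested on simulated data.

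Alternatives were DESeq2 1.42.0, limma 3.58.1 on log2 FPKM with a pseudocount of 0.1 or 1, library size alone, upper-quartile normalization, other filters, a replicate block and each replicate left out. Coordinates of genes are those of GENCODE v29 on GRCh38, and promoters are those of RefSeq.

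The members and lists were chosen with earlier results of these data known. The text names all members, the targeted genes, the 3 genes of each list with the largest absolute log2 change in DKO among those with a mean of at least 50 counts, and the 3 genes most like TAGLN and SRF. Genes are compared with each other only by FPKM, which is per length.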

Additional observations from a re-analysis of the deposited data

How the results depend on the processing

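No member passed an adjusted p of 0.05 under any alternative. Over 202 member values the lowest adjusted p was 0.341, and 189 kept the direction of the reported value. The 13 that changed direction did so when 1 library was left out. In DKO these were TAGLN (-0.46 to 0.45), CNN2 (-0.35 to 0.03), TPM1 (-0.39 to 0.02) and CALD1 (-0.16 to 0.64), in MRCKα KO TAGLN (-0.21 to 0.70), CNN1 (-0.23 to 0.29), CNN2 (-0.33 to 0.05), TPM1 (-0.12 to 0.26) and CALD1 (-0.04 to 0.75), and in MRCKβ KO ACTA2 (-0.23 to 0.35), TAGLN (-0.51 to 0.41) and CNN1 (-0.26 to 0.27).

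Over all genes, edgeR called 0 in DKO, DESeq2 called 4, and leaving out 1 library gave 0 to 5, with 5 without DKO 1 and 1 without vector 1. In each single knockout leaving out 1 library gave 0 to 1, the 1 being without vector 1. With the replicate number as a replicate block, 5 genes were called in DKO and no member, and SRF had an adjusted p of 0.789. The labels do not say that equal numbers mark a shared batch. As a hint from the data alone, vector 1 minus vector 2 and DKO 1 minus DKO 2 had r = 0.333 across 13123 genes, which are not independent replicates.

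By the fold-change rule, 2 members passed in MRCKα KO, 1 with a pseudocount of 0.1, 0 with a pseudocount of 1 and 1 with a mean of at least 1 FPKM in either group. In MRCKβ KO 1 passed, 0 with a pseudocount of 1, 0 with a mean of at least 1 FPKM and 1 to 2 without 1 vector library. In DKO 0 passed, and 0 to 2 without 1 library, where a lone DKO library no longer has a replicate to be compared with. Depth limits ACTA2, ACTG2, CNN1 and LMOD1, and 2 libraries a group limit the rest.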
